A study of Mus musculus with 7 samples.

Results

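The galectin family was followed across the cell compartments of MMTV-PyMT mammary tumors. The genes described are Lgals1, Lgals3, Lgals3bp, Lgals7, Lgals8 and Lgals9, taken by symbol from the UMI matrices: 6 of the 31852 genes with at least 1 UMI in a cell, and 6 of the 11 galectin-named genes listed in any matrix. They were selected on their CPM levels across the compartments of these same tumors, with earlier results known, so those levels and the tests beside them describe the pattern and are not independent evidence of it. The series was made by Drop-seq, a droplet method that tags each mRNA molecule with a unique molecular identifier (UMI) and each cell with a barcode, on 7 tumors, 1 per mouse. All 7 belonged to 1 group: C57BL/6 mice carrying the polyoma middle T antigen under the MMTV promoter, which drives it in mammary epithelium, and Hk2 flanked by loxP sites (HK2f/f), without the Cre recombinase. The controls were given tamoxifen as well, and the labels call their genotype wild type. Tissue was collected once 3 months had passed from first palpation of a tumor. Libraries with Hk2 deleted are not analysed here. The titles number replicates 1 to 4 in a CB series and 5, 7 and 8 in a WT series, and the labels do not say what sets those series apart.

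Galectins are small lectins that bind beta-galactoside sugars on glycoproteins and glycolipids. They lack a signal peptide, leave the cell by an unconventional route, and cross-link glycosylated receptors at cell surfaces as well as acting inside the cell. Lgals1 encodes a dimeric prototype galectin common in mesenchymal cells, Lgals3 a chimera-type galectin well known from macrophages, Lgals7 a prototype galectin of stratified epithelia, and Lgals8 and Lgals9 encode tandem-repeat galectins with a pair of sugar-binding domains. Lgals3bp is no galectin: it encodes a secreted glycoprotein that galectins bind.

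Of 37000 deposited barcodes, 15047 held between 200 and 6000 genes and were taken as cells (1133 to 4780 cells and 962677 to 4471473 UMIs per library, median 527 to 694 UMIs per cell). Only 5 cell barcodes occurred in 2 libraries. Marker genes, with no galectin among them, placed 9351 cells (62.1%) in 7 classes: 4343 tumor, 1064 hormone-sensing, 180 myoepithelial, 1020 fibroblast, 116 endothelial, 1567 macrophage and 1061 T/NK cells. UMIs were summed per mouse and class where the class had at least 10 cells and expressed per 1000000 UMIs of that sum (CPM), which gave sums for 7 mice in tumor, hormone-sensing, fibroblast, macrophage and T/NK cells, for 5 in myoepithelial cells (mice 1, 3, 4, 5 and 8) and for 3 in endothelial cells (mice 4, 5 and 8). Barcodes under 200 genes, 240887 to 525183 UMIs per library, gave a reference level for each gene. Whether they hold RNA from outside cells or small cells was not tested; Ptprc, a leukocyte gene, was at 286 CPM there against 9.46 CPM in tumor cells.

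Markers kept out of the class rule checked the names. All of them were highest in their own class except Aqp5 of the hormone-sensing list, which was higher in tumor cells. Summed, that check list did not separate hormone-sensing cells (302 to 553 CPM, median 394) from tumor cells (279 to 485 CPM, median 392), whereas the defining markers, which chose the cells, stood at 6342 to 13273 CPM against 227 to 461 CPM. The myoepithelial sum of mouse 3, from 14 cells, went against its name: its myoepithelial check markers summed to 64.0 CPM against 1699 to 4346 CPM in mice 1, 4, 5 and 8, it held no Krt5, Acta2 or Mylk UMI, and it was classed through the keratins Krt14 and Krt17. The fold changes and mean levels of the 6 genes in myoepithelial cells are given with and without it. The exception is the fold change of Lgals9, which is given with it only. Cell shares include it. Tumor-cell check markers summed to 1379 to 4425 CPM in the myoepithelial sums and 501 to 3608 CPM in the hormone-sensing sums. In tumor cells they summed to 9606 to 18727 CPM. The macrophage check markers summed to 209 to 1079 CPM in T/NK cells against 3228 to 5078 CPM in macrophages. The part of either list in the galectin levels of myoepithelial, hormone-sensing and T/NK cells was not tested. The T/NK sum of mouse 8 held 12 cells and 6061 UMIs.

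**Figure D1:**
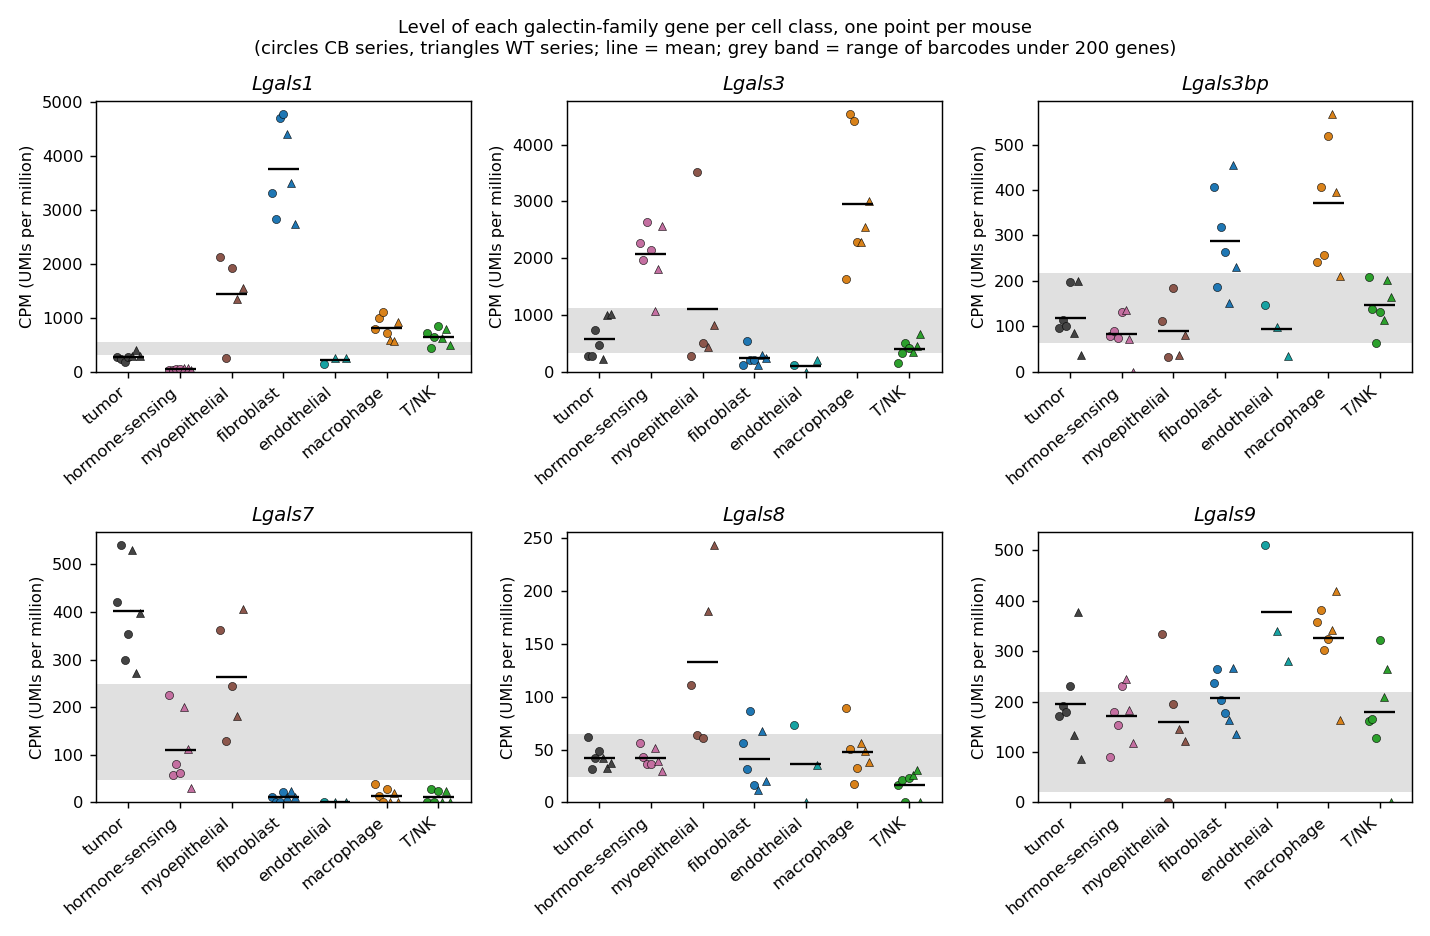
CPM of the 6 genes (y axis, linear, a separate scale per panel) in each cell class (x axis), with 1 point per mouse (circles CB series, triangles WT series), the mean as a line and the range of the barcodes under 200 genes as a grey band. Lgals1 reached 2732 to 4779 CPM in fibroblasts, Lgals3 was above the band in every macrophage sum and above 1000 CPM in every hormone-sensing sum, and Lgals7 lay above the band in all 7 tumor sums.

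Each class was compared with tumor cells in 1 model over all 43 sums, with the mouse as a block, so that the 6 comparisons share the tumor sums. A gene was called at an edgeR adjusted p under 0.05. Among macrophages 4 of the 6 genes were called higher (Lgals1, Lgals3, Lgals3bp and Lgals9) and 1 lower (Lgals7), where 52.0% of the 5082 tested genes were called, 23.0% higher and 29.1% lower. In fibroblasts 2 were higher (Lgals1 and Lgals3bp) and 2 lower (Lgals3 and Lgals7), beside 47.4% of tested genes, 23.0% higher and 24.4% lower. Hormone-sensing cells had 1 higher (Lgals3) and 2 lower (Lgals1 and Lgals7), beside 29.9%, 11.6% higher and 18.3% lower. T/NK cells had 1 higher (Lgals1) and 2 lower (Lgals7 and Lgals8), beside 52.7%, 21.9% higher and 30.9% lower. Myoepithelial cells had 2 higher (Lgals1 and Lgals8) and 0 lower, beside 19.9%, 9.96% higher and 9.90% lower. Endothelial cells had 0 higher and 2 lower (Lgals3 and Lgals7), beside 20.8%, 8.32% higher and 12.5% lower. With backgrounds of this size these counts say little by themselves, and the direction and size of each gene's difference carry the description. The median log2 fold change over all tested genes was itself below 0 in each comparison: -0.12 in hormone-sensing cells, -0.20 in myoepithelial cells, -0.11 in fibroblasts, -0.46 in endothelial cells, -0.20 in macrophages and -0.21 in T/NK cells. Under DESeq2, whose scaling differs, it was -0.48, -1.30, -0.80, -1.64, -0.78 and -0.94 in that order, and DESeq2 values given below carry this shift. The median over the 6 members was -0.43, 0.14, 0.03, -0.79, 1.33 and -0.30 in the same order.

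**Figure D2:**
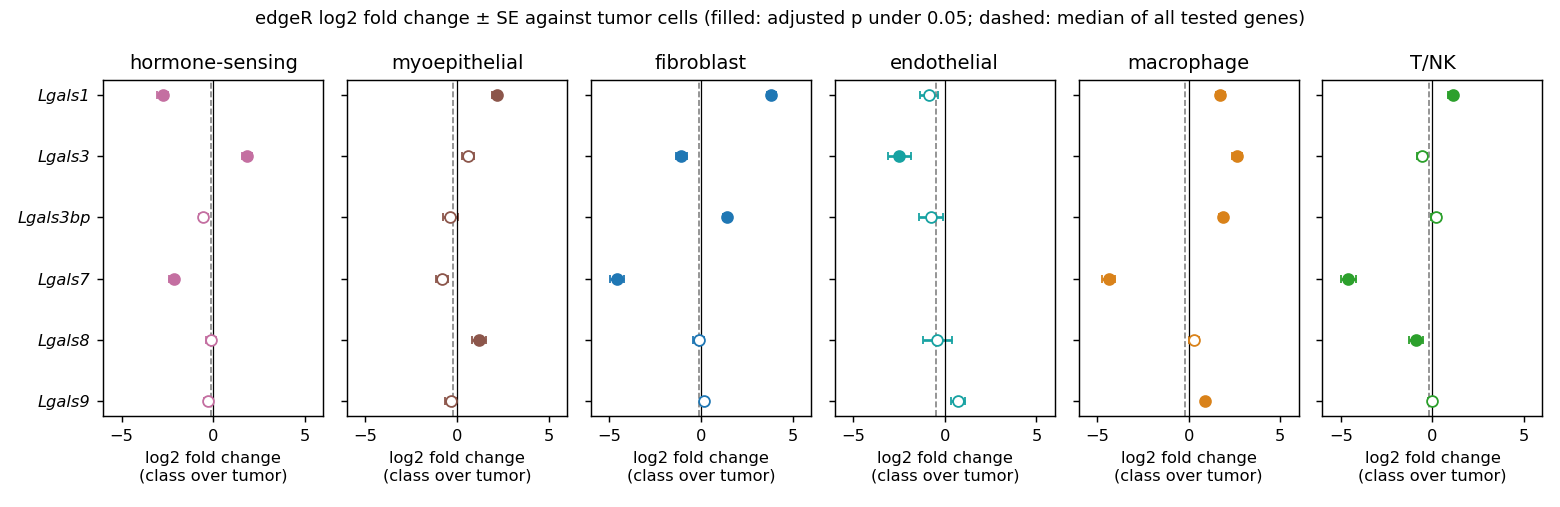
Log2 fold change of each gene (rows) against tumor cells with its SE, 1 panel per class, filled where the edgeR adjusted p was under 0.05, with the median of all tested genes dashed. Lgals7 lay left of 0 in each panel drawn, called in 4 of them, and the other 5 genes each had values on both sides of 0, though 11 uncalled values change sign under some alternative. The endothelial point of Lgals7 is left out because no UMI was counted there.

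Lgals1 (ENSMUSG00000068220.6, chr15:78926725-78930465, plus strand, GRCm38) was highest in fibroblasts among the 7 classes. Fibroblasts held 3310, 2819, 4694, 4779, 4409, 3498 and 2732 CPM in mice 1, 2, 3, 4, 5, 7 and 8, and tumor cells of the same mice held 262, 227, 177, 274, 291, 409 and 297 CPM. The groups were far apart, with every fibroblast sum several times the highest tumor sum. Their log2 fold change was 3.83 (SE 0.25, edgeR adjusted p = 2.60e-20), higher in 7 of 7 mice, and it was 4.05 in the CB series and 3.60 in the WT series. Macrophages followed with 560 to 1109 CPM (log2 fold change 1.74, SE 0.24, edgeR adjusted p = 5.39e-09, 2.17 in the CB and 1.34 in the WT series) and T/NK cells with 430 to 838 CPM (1.11, SE 0.24, edgeR adjusted p = 1.11e-04, 1.28 in the CB and 0.83 in the WT series). The T/NK call was lost in the WT series alone (edgeR adjusted p = 0.108) and under DESeq2 (log2 fold change 0.27, adjusted p = 0.445).

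Myoepithelial cells held 2117, 1919, 1343 and 1546 CPM of Lgals1 in mice 1, 4, 5 and 8, and 256 CPM in mouse 3. The log2 fold change against tumor cells was 2.15 (SE 0.27, edgeR adjusted p = 5.08e-09), and 2.45 (SE 0.23) without the sum of mouse 3. It was 2.28 in the CB series and 1.79 in the WT series. Fibroblast check markers summed to 0 to 1668 CPM in the myoepithelial sums (median 726 CPM), against 3774 to 8150 CPM in fibroblasts, and their part in the Lgals1 level of these cells was not tested. Endothelial cells held 146, 243 and 246 CPM in mice 4, 5 and 8, with no call against tumor cells (log2 fold change -0.84, SE 0.49, edgeR adjusted p = 0.221).

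Hormone-sensing cells, the luminal cells that carry estrogen and progesterone receptors, had the least Lgals1: 33.9, 32.9, 44.0, 46.4, 64.3, 65.7 and 29.5 CPM, below every tumor sum. Against tumor cells the log2 fold change was -2.75 (SE 0.30, edgeR adjusted p = 2.91e-11), lower in 7 of 7 mice, -2.73 in the CB and -2.65 in the WT series. Barcodes under 200 genes held 305 to 548 CPM, so that hormone-sensing cells lay under this level in 7 of 7 mice and tumor cells in 6 of 7. How much of the tumor level comes from RNA outside the cells was not tested. In order of mean level the classes ran fibroblast (3749 ± 870 CPM, SD, n = 7), myoepithelial (1436 ± 726, n = 5, and 1731 ± 351, n = 4, without mouse 3), macrophage (809 ± 209, n = 7), T/NK (647 ± 148, n = 7), tumor (276 ± 71.5, n = 7), endothelial (212 ± 56.9, n = 3) and hormone-sensing (45.2 ± 14.8, n = 7). Myoepithelial and macrophage, and macrophage and T/NK, differed within mice by less than the SD of that difference; the other neighbours differed by more. Without mouse 3 the step from myoepithelial cells to macrophages was 1.19 on the log2 scale with an SD of 0.32 (higher in 4 of 4 mice), beyond the SD.

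Lgals3 (ENSMUSG00000050335.17, chr14:47367751-47386160, plus strand) was high in 2 compartments that share no lineage. Macrophages held 1633, 4546, 4420, 2277, 2293, 2555 and 3008 CPM in mice 1, 2, 3, 4, 5, 7 and 8. Hormone-sensing cells held 2269, 1975, 2634, 2135, 1068, 1814 and 2564 CPM. Both stood above the tumor sums (271, 272, 728, 463, 223, 1003 and 1010 CPM) in 7 of 7 mice. The log2 fold change against tumor cells was 2.63 in macrophages (SE 0.27, edgeR adjusted p = 2.05e-12, 3.03 in the CB and 2.33 in the WT series) and 1.82 in hormone-sensing cells (SE 0.27, edgeR adjusted p = 1.32e-07, 2.36 in the CB and 1.20 in the WT series). Macrophages were the higher of both in 6 of 7 mice, by a log2 difference of 0.48 with an SD of 0.59, so the order of these 2 classes was within the spread between mice.

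The tumor level of Lgals3 spread from 223 CPM in mouse 5 to 1010 CPM in mouse 8 and lay below that of the barcodes under 200 genes (326 to 1117 CPM) in 5 of 7 mice. Fibroblasts held 116 to 545 CPM, lower than tumor cells (log2 fold change -1.07, SE 0.29, edgeR adjusted p = 0.00191) in 6 of 7 mice, with -0.66 and no call in the CB series (edgeR adjusted p = 0.211) and -1.45 in the WT series. Endothelial cells held 110, 0 and 211 CPM from 3, 0 and 6 UMIs, also lower (-2.48, SE 0.63, edgeR adjusted p = 0.00223), with -2.26 in the CB series, where mouse 4 is the only endothelial sum, and -2.98 in the WT series. All 3 values were under the level of the barcodes under 200 genes, and the endothelial call did not hold under every alternative. T/NK cells held 145 to 660 CPM (-0.57, SE 0.29, edgeR adjusted p = 0.0961).

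In myoepithelial cells Lgals3 was 279, 501, 436 and 814 CPM in mice 1, 4, 5 and 8 but 3520 CPM in mouse 3, from 110 UMIs. The log2 fold change of 0.61 (SE 0.33, edgeR adjusted p = 0.194) turned to -0.09 (SE 0.33, edgeR adjusted p = 0.886) without that sum. This sum of 14 cells, without smooth-muscle genes, combined high Lgals3 with low Lgals1. Mean levels ran macrophage (2962 ± 1117 CPM, SD, n = 7), hormone-sensing (2066 ± 530, n = 7), myoepithelial (1110 ± 1362, n = 5, but 507 ± 225, n = 4, without mouse 3), tumor (567 ± 346, n = 7), T/NK (407 ± 161, n = 7), fibroblast (245 ± 145, n = 7) and endothelial (107 ± 106, n = 3). Among neighbours, the step from hormone-sensing to myoepithelial cells, with or without mouse 3, was larger than the SD of the difference within mice and the others were not.

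Lgals3bp (ENSMUSG00000033880.11, chr11:118392751-118402092, minus strand) was highest in macrophages and fibroblasts. Macrophages held 242, 407, 257, 518, 568, 395 and 211 CPM in mice 1, 2, 3, 4, 5, 7 and 8, against 95.1, 113, 101, 196, 84.6, 199 and 37.6 CPM in tumor cells. Each macrophage sum was above all tumor sums. The log2 fold change was 1.86 (SE 0.22, edgeR adjusted p = 1.30e-10, 1.74 in the CB and 2.23 in the WT series). Fibroblasts held 407, 187, 319, 263, 151, 454 and 229 CPM (1.42, SE 0.23, edgeR adjusted p = 5.82e-07, 1.21 in the CB and 1.75 in the WT series), higher than tumor cells in 7 of 7 mice, although the ranges overlapped; under DESeq2 the fibroblast call was lost (log2 fold change 0.74, adjusted p = 0.0637). The other 4 classes were not called, with log2 fold changes of -0.55 in hormone-sensing, -0.36 in myoepithelial (-0.20 without mouse 3), -0.74 in endothelial and 0.18 in T/NK cells. Macrophages and fibroblasts lay above the barcodes under 200 genes in 7 of 7 mice, and mean levels ran from 371 ± 140 CPM (SD, n = 7) in macrophages and 287 ± 112 (n = 7) in fibroblasts through 146 ± 51.2 (n = 7) in T/NK cells, 118 ± 59.2 (n = 7) in tumor cells, 92.9 ± 55.6 (n = 3) in endothelial and 88.9 ± 62.2 (n = 5, and 103 ± 61.8, n = 4, without mouse 3) in myoepithelial cells to 82.7 ± 44.9 (n = 7) in hormone-sensing cells. Of these steps the one from fibroblasts to T/NK cells exceeded the SD of the difference within mice, and the other 5 did not.

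Lgals7 (ENSMUSG00000053522.11, chr7:28863853-28866284, plus strand) was the epithelial member. Tumor cells held 421, 542, 298, 355, 531, 272 and 398 CPM in mice 1, 2, 3, 4, 5, 7 and 8, and 89.1% of the 2644 Lgals7 UMIs in the 7 classes were in tumor cells, which made up 46.4% of the classed cells and 54.2% of their UMIs. Hormone-sensing cells, the other luminal class, held 226, 58.3, 80.7, 62.1, 199, 112 and 29.5 CPM, below the tumor cells of the same mouse in 7 of 7 mice and below the lowest tumor sum throughout (log2 fold change -2.17, SE 0.26, edgeR adjusted p = 5.89e-10, -2.43 in the CB and -1.73 in the WT series). Tumor cells lay above the barcodes under 200 genes (46.5 to 249 CPM) in 7 of 7 mice, hormone-sensing cells in 1 of 7. Tumor-cell check markers summed to 501 to 3608 CPM in hormone-sensing cells, and their part in this Lgals7 level was not tested. Myoepithelial cells held 362, 128, 244, 181 and 407 CPM in mice 1, 3, 4, 5 and 8, with no call (-0.83, SE 0.34, edgeR adjusted p = 0.0698, and -0.73 without mouse 3).

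In the stromal and immune classes Lgals7 was low. Fibroblasts held 0 to 24.2 CPM from 15 UMIs, macrophages 0 to 38.3 CPM from 21 UMIs and T/NK cells 0 to 27.7 CPM from 11 UMIs. The log2 fold changes were -4.57 (SE 0.38, edgeR adjusted p = 1.53e-15, -4.88 in the CB and -4.28 in the WT series), -4.36 (SE 0.35, edgeR adjusted p = 4.25e-16, -3.85 and -5.08) and -4.59 (SE 0.42, edgeR adjusted p = 4.15e-14, -4.46 and -4.83). No Lgals7 UMI was counted in 76348 endothelial UMIs of mice 4, 5 and 8; with a floor of 3 counts over the group (39.3 CPM) the level was at least 10.9-fold lower than the 428 CPM in tumor cells of the same mice (edgeR adjusted p = 3.50e-06, and 1.14e-06 in the WT series; the CB series has 1 endothelial sum). Every stromal and immune sum was below the barcodes under 200 genes of its library. This order cannot be read for T/NK cells of mice 3 and 8 and endothelial cells of mice 4 and 8, which are too shallow. They held 0 UMIs, with upper exact Poisson limits of 234, 609, 135 and 130 CPM. The barcodes under 200 genes held 121, 46.5, 96.7 and 46.5 CPM in the same order. Mean levels were 402 ± 105 CPM (SD, n = 7) in tumor, 265 ± 118 (n = 5, and 299 ± 104, n = 4, without mouse 3) in myoepithelial, 110 ± 75.0 (n = 7) in hormone-sensing, 14.1 ± 15.3 (n = 7) in macrophage, 11.5 ± 9.34 (n = 7) in fibroblast and 10.8 ± 13.5 (n = 7) in T/NK cells; the step from hormone-sensing to macrophage exceeded the SD of the difference within mice. The step from tumor to myoepithelial did so with mouse 3 (0.67, SD 0.64) and not without it (0.55, SD 0.67).

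Lgals8 (ENSMUSG00000057554.13, chr13:12439415-12464944, minus strand) was low and even across most classes. Its exons overlap exons of Heatr1 on the other strand, and whether the counting used strand is not given in the sources used here. Tumor cells held 31.97 to 61.7 CPM with a median of 41.7 CPM, barcodes under 200 genes 24.1 to 64.7 CPM, and the means of hormone-sensing cells (41.9 ± 9.30 CPM, SD, n = 7), fibroblasts (41.5 ± 29.0, n = 7), macrophages (47.6 ± 22.5, n = 7) and endothelial cells (36.1 ± 36.6, n = 3) lay close to the 42.3 ± 10.4 CPM (n = 7) of tumor cells. These 4 classes were not called against tumor cells (log2 fold changes -0.14, -0.12, 0.27 and -0.40). Myoepithelial cells held 111, 64.0, 61.1, 181 and 244 CPM in mice 1, 3, 4, 5 and 8, from 2 to 6 UMIs each (mean 132 ± 79.2 CPM, SD, n = 5, and 149.5 ± 80.1, n = 4, without mouse 3), above the tumor cells and the low barcodes of their own mouse in 5 of 5 mice. The log2 fold change was 1.21 (SE 0.39, edgeR adjusted p = 0.0201), and 1.33 (SE 0.41, edgeR adjusted p = 0.0148) without mouse 3. Under DESeq2 it was 0.016 (adjusted p = 0.978), but relative to the median of all genes it was 1.31, against 1.41 in edgeR. It was 0.44 with no call in the CB series (edgeR adjusted p = 0.638) and 2.22 in the WT series, and the call was lost without mouse 5 or mouse 8, so it rests on the sums of those mice, of few UMIs. T/NK cells held 0 to 30.7 CPM from 15 UMIs, below tumor cells in 7 of 7 mice (-0.90, SE 0.39, edgeR adjusted p = 0.0460). The sums of mice 3 and 8 held 0 UMIs in 15757 and 6061, with upper exact Poisson limits of 234 and 609 CPM. Tumor cells of these mice held 41.7 and 37.6 CPM, so sums this shallow cannot show a lower level. The sum of mouse 1 held 1 UMI. The T/NK call was lost in each title series alone (-1.25 with adjusted p = 0.0529 in the CB and -0.50 with adjusted p = 0.618 in the WT series) and without mouse 1, 2, 3, 5 or 8.

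Lgals9 (ENSMUSG00000001123.15, chr11:78962974-78984946, minus strand) was detected in every class, and among the 7 classes was highest in endothelial cells and macrophages. Macrophages held 357, 382, 302, 323, 343, 419 and 163 CPM in mice 1, 2, 3, 4, 5, 7 and 8, and tumor cells 172, 192, 180, 232, 134, 377 and 86.4 CPM. The ranges overlapped because tumor cells of mouse 7 were high and macrophages of mouse 8 low, but macrophages were the higher in 7 of 7 mice (log2 fold change 0.91, SE 0.20, edgeR adjusted p = 1.04e-04, 0.99 in the CB and 1.01 in the WT series). Under DESeq2 the log2 fold change was 0.29 (adjusted p = 0.358). Endothelial cells held 512, 341 and 281 CPM in mice 4, 5 and 8, above the tumor cells of their mouse in 3 of 3, without a call (0.71, SE 0.39, edgeR adjusted p = 0.191, 0.64 in the CB series, which has 1 endothelial sum, and 0.61 in the WT series). The median of all genes was -0.46 in that comparison, where Lgals9 was 1.18 with edgeR's RLE factors and called (adjusted p = 0.0238) and -0.66 under DESeq2 (adjusted p = 0.207); relative to the median of all genes it was 1.17 in edgeR and 0.98 under DESeq2. The other 4 classes differed from tumor cells by -0.33 to 0.17 on the log2 scale with no call, and mean levels ran endothelial (378 ± 120 CPM, SD, n = 3), macrophage (327 ± 81.9, n = 7), fibroblast (207 ± 51.2, n = 7), tumor (196 ± 92.0, n = 7), T/NK (179 ± 103, n = 7), hormone-sensing (172 ± 56.1, n = 7) and myoepithelial (159 ± 121, n = 5, but 199 ± 95.1, n = 4, without mouse 3). The first 2 steps exceeded the SD of the difference within mice and the last 4 did not.

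Sequence just upstream of the RefSeq transcription start is shown for Lgals3bp and Lgals9, the 2 members that were called higher in macrophages and whose window held a GAAA repeat of the kind bound by interferon regulatory factors. RefSeq windows (GRCm38.p6) were on hand for 5 of the 6 members, all but Lgals1. The 250 bases before the start are printed 5′ to 3′ on the gene's strand (minus strand of the genome for both), with the motif in capitals. In Lgals3bp it is GAAANNNGAAA, 7 to 17 bases before the start, and in Lgals9 it is GAAANNGAAA read on the opposite strand, 46 to 55 bases before the start. The start is the one RefSeq gives; the GENCODE gene span above reaches further upstream for both genes, and the Lgals3bp motif lies inside it.
Lgals3bp, chr11:118401960-118402209: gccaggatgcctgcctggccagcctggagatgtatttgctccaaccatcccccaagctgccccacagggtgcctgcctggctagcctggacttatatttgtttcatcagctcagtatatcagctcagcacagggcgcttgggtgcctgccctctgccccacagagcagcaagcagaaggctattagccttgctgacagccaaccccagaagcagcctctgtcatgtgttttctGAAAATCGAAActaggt
Lgals9, chr11:78984925-78985174: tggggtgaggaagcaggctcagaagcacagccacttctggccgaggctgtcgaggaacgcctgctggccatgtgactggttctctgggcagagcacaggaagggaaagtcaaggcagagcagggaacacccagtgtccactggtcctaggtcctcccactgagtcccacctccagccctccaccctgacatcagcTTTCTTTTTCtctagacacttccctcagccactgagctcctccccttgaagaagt
On either strand, GAAANNGAAA occurred in 2.98% and GAAANNNGAAA in 2.38% of all 32851 windows of this length, and 5.20% held at least one of them. The windows of Lgals3, Lgals7 and Lgals8 held neither. The motifs were chosen after the levels were known, and a match is a description of letters, not of a bound site.

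Shares of single cells with a UMI were compared at equal depth. Each cell was thinned to 300 UMIs and shallower cells were left out (270 of 4343 tumor, 47 of 1064 hormone-sensing, 23 of 180 myoepithelial, 88 of 1020 fibroblast, 12 of 116 endothelial, 82 of 1567 macrophage and 164 of 1061 T/NK cells). Median depths before thinning were 802, 1200, 873, 706, 542, 593 and 464 UMIs in that order. An Lgals1 UMI was found in 54.9% of fibroblasts (exact binomial 95% interval 51.7 to 58.2%), 36.9% of myoepithelial cells, 14.8% of T/NK cells and 13.7% of macrophages, against 1.97% of hormone-sensing cells, which at their own depth held one in 8.08% where fibroblasts held one in 77.2%. An Lgals3 UMI was found in 40.3% of hormone-sensing cells (37.3 to 43.4%) and 36.2% of macrophages (33.8 to 38.7%), against 6.76% of fibroblasts and 2.88% of endothelial cells; unthinned, the shares were 76.6%, 55.8%, 15.9% and 9.48%. The order of macrophages and hormone-sensing cells by share went against their order by CPM, so no order is read from it. The intervals cover counting error only.

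An Lgals7 UMI was found in 9.13% of thinned tumor cells (8.27 to 10.1%), 9.55% of myoepithelial cells (5.45 to 15.3%) and 2.85% of hormone-sensing cells (1.92 to 4.07%), against 0.429% of fibroblasts, 0.404% of macrophages and 0.446% of T/NK cells. Single mice ran from 1.13 to 7.5% in hormone-sensing cells and from 0 to 1.16% in fibroblasts and in T/NK cells, so these ranges overlapped. Whether the UMIs in the stromal and immune cells came from RNA outside those cells was not tested. At full depth, with medians of 802 UMIs in tumor and 464 in T/NK cells, 25.1% of tumor cells and 0.943% of T/NK cells held one, and 0 of 104 thinned endothelial cells did (upper limit 3.48%, exact binomial). An Lgals3bp UMI was found in 11.2% of thinned macrophages and 8.48% of fibroblasts against 2.65% of hormone-sensing cells (unthinned 22.7%, 20.8% and 16.5%), an Lgals9 UMI in 10.6% of endothelial cells, 9.09% of macrophages and 5.10 to 6.88% of the other classes (unthinned 24.1%, 21.1% and 12.4 to 26.97%) and an Lgals8 UMI in 0.858 to 1.95% (unthinned 1.41 to 9.44%). The thinned Lgals8 share of myoepithelial cells, 1.27%, had an interval from 0.155 to 4.53% that included the shares of all other classes, so the higher CPM of that class was not detectable at this depth.

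**Figure D3:**
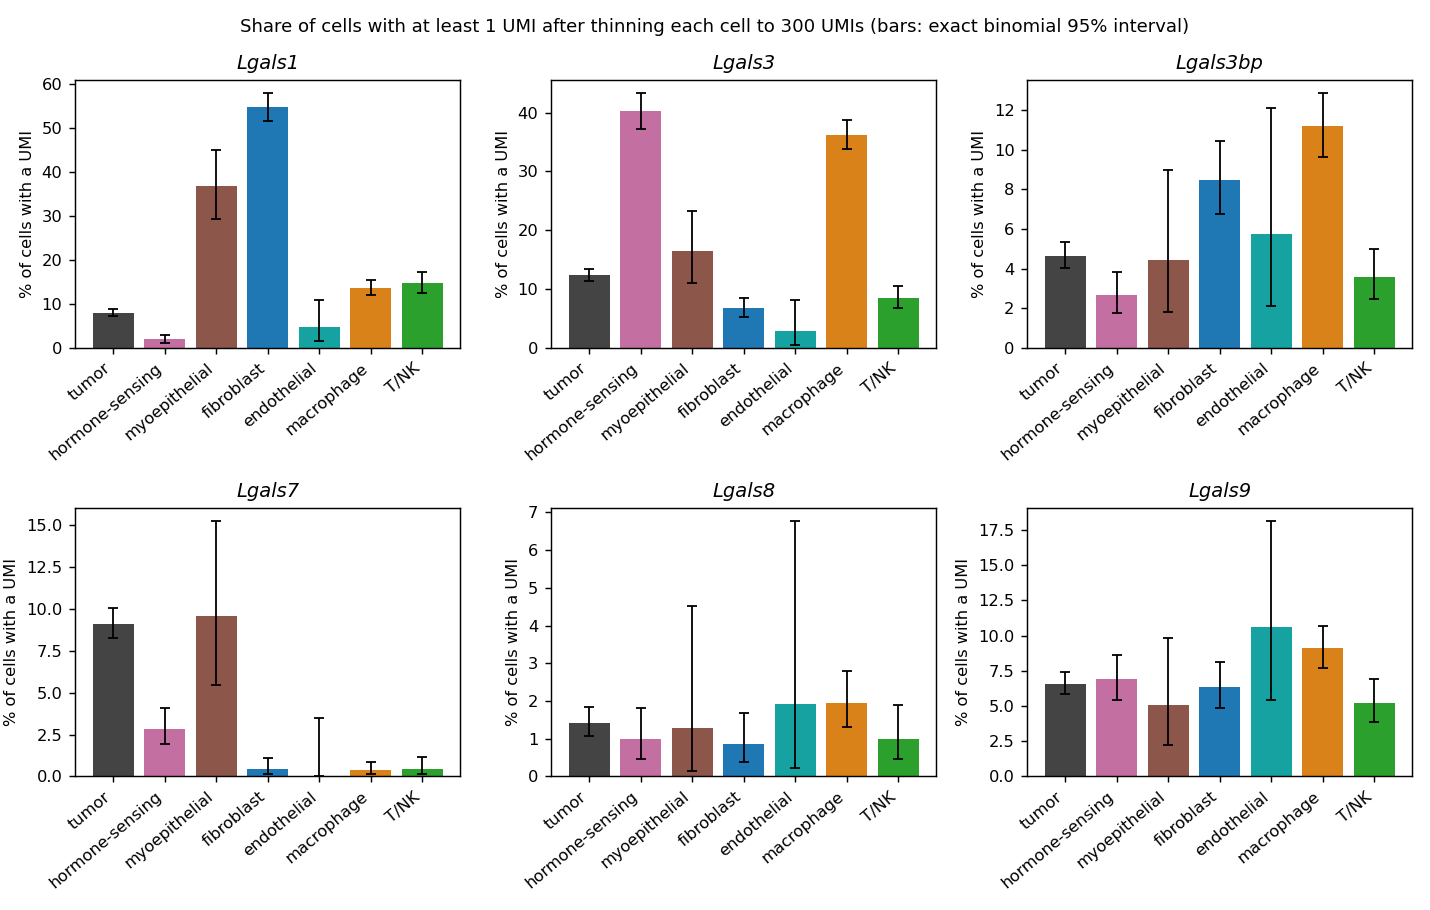
Share of cells with at least 1 UMI of each gene (y axis, percent, from 0) per class (x axis) after every cell was thinned to 300 UMIs, with exact binomial 95% intervals that cover counting error. Fibroblasts stood highest for Lgals1 at 54.9%, hormone-sensing cells and macrophages for Lgals3 at 40.3% and 36.2%, and Lgals7 stayed under 0.5% in fibroblasts, macrophages and T/NK cells.

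Within classes, cells were split by a marker UMI and summed again per mouse where both sets had at least 10 cells. The 24 gene and class pairs were examined as a description, and those named here were chosen after their values were seen. In tumor cells with a PYMT UMI, the transgene's own transcript, Lgals3 was lower than in tumor cells without one in 7 of 7 mice: 187 to 960 CPM (median 441) against 331 to 1783 CPM (median 610). The cells without a PYMT UMI were shallower (median 526 against 1068 UMIs), while the tumor check markers were much alike at a median of 11778 against 12215 CPM. Myoepithelial check markers, at a median of 48.1 against 69.6 CPM, were lower with a PYMT UMI in 7 of 7 mice too. Hormone-sensing check markers, at a median of 422 against 349 CPM, were higher with a PYMT UMI in 6 of 7 mice. Summed, that list did not separate hormone-sensing from tumor cells (medians of 394 and 392 CPM). It therefore cannot show whether hormone-sensing cells were among those with or without a PYMT UMI. The part of myoepithelial or hormone-sensing cells in the Lgals3 difference was not tested. Lgals9 was lower too, in 6 of 7 mice (medians of 166 and 224 CPM). Lgals7 did not follow, with medians of 386 and 407 CPM and higher values with a PYMT UMI in 4 of 7 mice.

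Macrophages with an UMI of Mrc1, the mannose receptor of tissue-resident and alternatively activated macrophages, differed from the others in Lgals8 and Lgals3bp. These log2 differences, 1.38 (SD 0.64) and -0.63 (SD 0.53), exceeded their SD within mice. Lgals8 was higher in 6 of 6 mice, 51.4 to 216 CPM against 10.3 to 42.9 CPM, though from 19 and 31 UMIs in all. Lgals1 was higher in 5 of 6 mice (mean 1178 ± 366 against 654 ± 286 CPM, SD), but its log2 difference of 0.88 was within the SD of 0.94. Lgals3bp was lower in 6 of 6 mice (262 ± 122 against 390 ± 159 CPM), and Lgals3, at 2623 ± 2004 against 2715 ± 982 CPM, was higher in 2 of 6. Median depths were 674 and 582 UMIs, and the macrophage check markers were higher in the cells with an Mrc1 UMI in 1 of 6 mice. Whether depth has a part in these differences was not tested. T/NK cells with a UMI of the T cell receptor complex had less Lgals3, 330 ± 29.1 against 1637 ± 433 CPM (SD, n = 2). That log2 difference was -2.25 (SD 0.51), from 522 and 31 cells with median depths of 414 and 618 UMIs. Lgals3bp was lower too, 147 against 440 CPM, and Lgals8 went the other way, 29.1 against 0 CPM. No cause was tested for these.

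**Figure D4:**
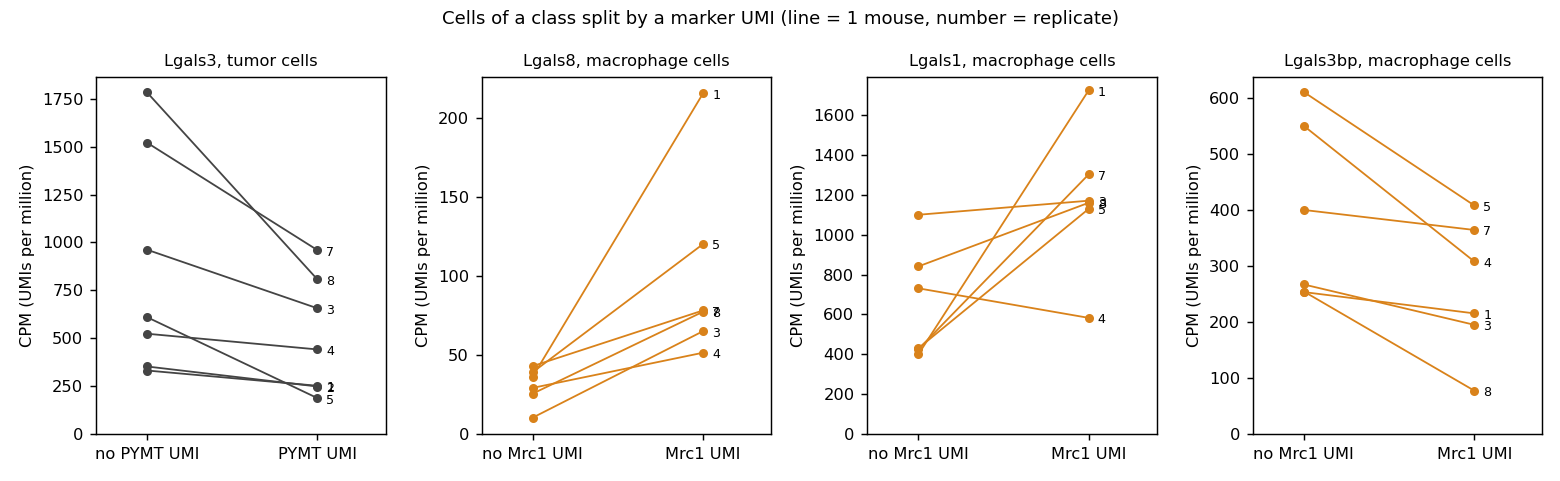
CPM (y axis, linear, from 0) of 4 gene and class pairs in cells without and with a marker UMI (x axis), with 1 line per mouse and its replicate number. Lgals3 fell from left to right in all 7 mice in tumor cells, Lgals8 rose in 6 of 6 and Lgals3bp fell in 6 of 6 in macrophages, and Lgals1 rose in 5 of 6.

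The receptors that galectins bind were unevenly spread over the same classes. Of 12 counter-receptor genes, 11 were tested. Macrophages had 9 higher than tumor cells and 1 lower, with a median log2 fold change of 1.63, where 23.0% of all tested genes were called higher and 29.1% lower and the all-gene median was -0.20. Fibroblasts had 6 higher and 2 lower (median 0.58), beside 23.0% and 24.4% of all genes and a median of -0.11. Under DESeq2 these counts were 7 and 2 in macrophages and 3 and 2 in fibroblasts, and in fibroblasts 4 were higher without a filter on low counts or in either title series alone. T/NK cells had 4 higher and 3 lower (21.9% and 30.9% of all genes), and 3 and 5 under DESeq2. Myoepithelial cells had 3 and 1 (9.96% and 9.90%), but 1 and 3 under DESeq2 and 6 and 1 with RLE factors. Hormone-sensing cells had 2 and 3 (11.6% and 18.3%), and 2 and 4 under DESeq2. Endothelial cells had 2 and 1 (8.32% and 12.5%), but 1 and 4 under DESeq2. Havcr2, which encodes the Lgals9 receptor TIM-3, had 171.5 CPM in macrophages and 1.94 CPM in tumor cells (log2 fold change 6.50, SE 0.38, edgeR adjusted p = 2.80e-21). In T/NK cells it rested on 5 UMIs in 3 of 7 mice, with a mean of 29.9 CPM and a median of 0 (2.23, SE 0.85, edgeR adjusted p = 0.0242). Mouse 8 held 165 CPM from 1 UMI, and without it the mean was 7.41 CPM and the call was lost (1.96, adjusted p = 0.0686), as in 12 of 20 alternatives in all. The leukocyte glycoproteins Ptprc (CD45) and Spn (CD43), ligands of Lgals1, were higher in T/NK cells (log2 fold changes 6.78 and 6.30) and macrophages (5.96 and 4.14). Both classes are leukocytes, so this direction was fixed by the class names. Spn (0.494 CPM) and Havcr2 were near 0 in tumor cells and can pass the filter on low counts only through classes where they are high. Ptprc, Spn and Havcr2 are among the receptors counted higher above in macrophages and T/NK cells, so those counts are a description only.

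Other receptors differed in where they were high, and no match between a receptor and its galectin was tested. Lamp1 and Lamp2, lysosomal glycoproteins bound by Lgals3, were higher in macrophages (log2 fold changes 1.63 and 0.96, the latter not called under DESeq2) and lower in T/NK cells (-1.59 and -2.58). They were also called higher in fibroblasts (0.46 and 0.58), which was lost without a filter on low counts and in either title series alone and below 0 under DESeq2, though above the median of all genes there by 0.50 and 0.63 (0.56 and 0.68 in edgeR). The Lamp1 call was also lost without the mouse block and without mouse 5 or mouse 8. Alcam, an adhesion molecule bound by Lgals8, was higher in hormone-sensing cells at 391 against 33.8 CPM (3.26, SE 0.24, edgeR adjusted p = 2.96e-17). It was also higher in macrophages (1.03, edgeR adjusted p = 4.68e-03, not called under DESeq2 or in the CB series alone) and lower in fibroblasts (-1.91, edgeR adjusted p = 3.57e-03, not called in the CB series alone or without mouse 8). Pdpn, encoding podoplanin, was higher in fibroblasts (7.32), myoepithelial cells (5.98, and 6.31 without mouse 3) and macrophages (4.83), and Nrp1, encoding neuropilin-1, in endothelial cells (6.12), fibroblasts (5.62), macrophages (5.22), T/NK cells (2.64) and hormone-sensing cells (2.52, not called in the WT series alone). Muc1, the mucin bound by Lgals3, was lower than in tumor cells in all 6 classes: by log2 fold changes of -2.60 to -4.60 in 5 of them, and at least 4.06-fold in endothelial cells, where no UMI was counted. Cd44 was higher in fibroblasts (1.72), macrophages (1.57) and myoepithelial cells (1.18, and 1.09 without mouse 3) and lower in hormone-sensing cells (-1.49); the myoepithelial call was lost in 5 of 21 alternatives, with -0.20 in the WT series alone and -0.016 under DESeq2.

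Most of the listed enzymes that build or modify glycans were sparse. Of 9 genes, only Mgat2 and B4galt1 passed the filter on low counts. B4galt1, a galactosyltransferase that adds the beta-linked galactose, was higher in fibroblasts (log2 fold change 1.08, SE 0.24, edgeR adjusted p = 1.25e-04) and T/NK cells (0.71, SE 0.28, edgeR adjusted p = 0.0269), the former not called under DESeq2 (0.35, adjusted p = 0.297) and the latter lost in 8 of 21 alternatives and below 0 under DESeq2. Mgat2, which starts the second antenna of N-glycans, was lower in hormone-sensing cells (-0.75, SE 0.23, edgeR adjusted p = 0.0107), a call lost in 6 of 21 alternatives: either title series alone, at least 500 genes per cell, scaling by library size alone, and without mouse 4 or mouse 7. In the fit without that filter, macrophages had 4 of the other 7 enzymes higher. There 1847 of all 29783 tested genes were called higher in macrophages and 3701 lower. Fold changes of Mgat2 and B4galt1 were lower in this fit than in the reported fit in each class. B4galt1 was 0.28 against 0.485 in macrophages and 0.38 against 0.71 in T/NK cells, and the enzyme values below carry this shift. Gcnt1, which starts core 2 branches of O-glycans, was at 26.97 against 2.42 CPM, from 33 and 15 UMIs, and higher in 7 of 7 mice (log2 fold change 3.24, edgeR adjusted p = 4.39e-13). Mgat5, which adds a branch of N-glycans, was at 29.2 against 5.49 CPM, higher in 7 of 7 mice (2.21, edgeR adjusted p = 6.93e-08), and St6gal1 (2.07) and Mgat4a (0.99) were higher in 6 and 5 of 7. In fibroblasts Mgat4a was lower in 7 of 7 mice (-2.85, edgeR adjusted p = 3.77e-05) and Mgat1 higher in 6 of 7 (0.93). T/NK cells had Gcnt1 higher (2.27, 14.3 against 2.42 CPM) and Mgat4b lower (-2.61, 0.877 against 9.49 CPM). Hormone-sensing cells had Mgat4a (-1.22, 5.96 against 21.6 CPM) and St6gal1 (-2.67, 0.125 against 5.13 CPM) lower. A floor of 3 counts was 18.4 CPM in the deepest T/NK sum (mouse 7) and 2.63 CPM in the deepest hormone-sensing sum (mouse 4). Mgat4b in T/NK cells and St6gal1 in hormone-sensing cells lay below these floors, so the size of their fold changes is not read. Of the 29783 tested genes, 2002 were called higher and 2663 lower in fibroblasts. T/NK cells had 1415 higher and 3747 lower, and hormone-sensing cells 924 and 1746.

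**Figure D5:**
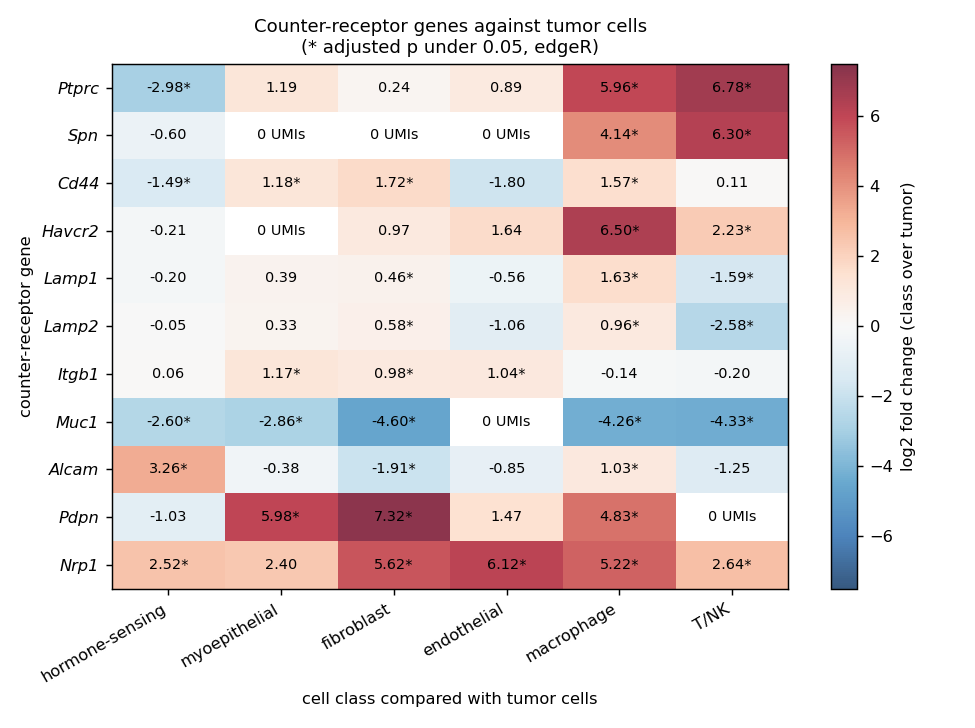
Log2 fold change of 11 counter-receptor genes (rows) against tumor cells in 6 classes (columns), starred where the edgeR adjusted p was under 0.05, with "0 UMIs" where the class held none. The macrophage column has 9 starred cells above 0, and the Muc1 row is below 0 in each class that held a UMI.

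The genes whose level followed each member most closely over the 43 sums were named by Pearson's r of log2(CPM + 10) among 6510 genes, with markers and members left out. Sums of 1 mouse share a library and sums of 1 class share their cell type, so r describes the pattern only. For Lgals1 they were Vim (r = 0.82), encoding the mesenchymal filament vimentin, Emp3 (0.82) and Cxcl14 (0.81). Vim itself was highest in endothelial cells (mean 4001 CPM), where Lgals1 had a mean of 212 CPM. Ctsd (0.79), encoding the lysosomal protease cathepsin D, Lpin2 (0.74) and Tpd52 (0.74) were nearest to Lgals3. For Lgals3bp they were Ifi27l2a (0.77), an interferon-induced gene, the decoy receptor gene Il1r2 (0.72) and the chemokine gene Ccl8 (0.71). Dbi (0.91) and the transcription factor genes Tfap2c (0.90) and Irx3 (0.89) ran with Lgals7, which is the closest match of any member. Flot1 (0.75), Pphln1 (0.72) and Sdhaf4 (0.70) were nearest to Lgals8, and Stx4a (0.83), Sod1 (0.79) and Tmem160 (0.73) to Lgals9.

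Cells outside the 7 classes held part of each gene's UMIs. The 5396 unclassed cells (median 443 UMIs) held 17.7% of Lgals1, 26.5% of Lgals3, 14.3% of Lgals3bp, 28.0% of Lgals7, 23.4% of Lgals8 and 17.5% of Lgals9 UMIs. Small sets with markers of other cell types, 300 cells in all, gave pooled levels with exact Poisson 95% intervals that cover counting error only. Lgals1 stood at 2540 CPM (1749 to 3567) in 18 pericyte-marked cells, the mural cells of vessels. Lgals3 stood at 1717 CPM (1367 to 2128) in 66 neutrophil- or monocyte-marked cells and at 1993 CPM (1454 to 2666) in 24 dendritic-marked cells, but at 54.8 CPM (17.8 to 128) in 165 B- or plasma-marked cells. Single mice ran from 884 to 9319 CPM for Lgals1 in the pericyte set and from 0 to 4280 CPM for Lgals3 in the dendritic set. With at least 3 distinct markers the sets held 12 pericyte, 14 neutrophil or monocyte, 1 dendritic and 77 B or plasma cells, so these names are weakly held. Pooled macrophages stood at 2690 CPM (2600 to 2782), above the neutrophil or monocyte set, in which single mice ran from 249.5 to 3680 CPM. Lgals7 was 258.8 CPM (84.0 to 604) in 27 erythroid-marked cells, from 5 UMIs, and 65.7 CPM (24.1 to 143) in the B- or plasma-marked cells, from 6 UMIs. Lgals9 was 455 CPM (285 to 689) in the neutrophil- or monocyte-marked cells, from 22 UMIs. In the B- or plasma-marked cells it was 98.6 CPM (45.1 to 187), from 9 UMIs. Of the other galectin-named genes, Lgalsl had 781 UMIs in all cells, more than the 640 of Lgals8, with 76.8 ± 12.5 CPM (SD, n = 7) in tumor cells, 190 ± 168 (n = 5) in myoepithelial cells, where mouse 3 held 480 CPM, and 2.29 ± 2.97 (n = 7) in macrophages. Lgals4 had 108 UMIs, Lgals2 52, Lgals12 42 and Grifin 0.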

How the data were processed

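The deposited files hold UMI counts per gene and cell barcode, 1 matrix per tumor, not normalized. Per the study's methods the authors aligned Drop-seq reads to mm10, supplemented with PyMT sequence; the submitters' processing notes name STAR and FastQC and another, human, build, with no role given. Versions are not given in the sources used here. From these counts, mitochondrial genes, which the matrices of mice 7 and 8 listed, were dropped and barcodes with 200 to 6000 genes kept. A cell joined a class when at least 2 distinct defining markers were present and their UMIs exceeded the number expected from the barcodes under 200 genes of the same library (log-likelihood ratio of 3 or more, and 2 more than the next list); cells with mixed lists stayed unclassed and no doublet caller was run. Of the 9351 classed cells, 516 were near the limits of this rule. The rule was set after marker values, not galectin values, had been seen. UMIs were summed per mouse and class (at least 10 cells, 43 sums).

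edgeR 4.0.16 (R 4.3.3, filterByExpr, TMM, quasi-likelihood F test, mouse as a block) gave log2 fold changes. Adjusted p is Benjamini-Hochberg over all genes in the fit, defining markers included. Those markers were then left out of counts of called genes, which cover the other 5082 tested genes. SE is the absolute log2 fold change over the square root of F. The steps were tested on simulated data. The labels name mice as separate samples, so p-values measure the spread of class differences within mice, pooled over all classes (3 mice for endothelial, 5 for myoepithelial and 7 for the other comparisons). Members and gene lists were chosen with earlier results of these data known. Genes named are the members, the 12 receptors and 9 glycan enzymes listed with them, and the 3 nearest genes per member by correlation (at least 50 CPM in 1 class). Positions are from GENCODE vM21. Alternatives comprised other cell and class rules, other scalings, no filter on low counts, DESeq2 1.42.0, no mouse block, the CB or WT series alone and each mouse left out. Python 3.11.15, numpy 2.4.6, scipy 1.17.1 and pandas 2.3.3 were used.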

Additional observations from a re-analysis of the deposited data

Results flagged for a closer look

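In 36 sets of 5 or 7 mice (each gene in each class but endothelial), the highest or lowest value was compared with the rest by its gap over the range, a rule that chance meets in about 1 of 20 sets. It picked out 2. Lgals3 in the myoepithelial sum of replicate 3 was 3520 CPM, where the other 4 mice held 279 to 814 CPM (gap 0.835 of the range). This is the sum whose cells held no Krt5, Acta2 or Mylk UMI. The myoepithelial sums of mice 2 and 7 were left out for their 5 and 9 cells. Both held Krt14 and Krt17 but no Krt5 or Mylk UMI. Their Lgals3 was 380 CPM from 4 UMIs in mouse 2 and 2000 CPM from 70 UMIs in mouse 7. Lgals3 in fibroblasts of replicate 2 was 545 CPM from 35 UMIs, where the other 6 mice held 116 to 285 CPM (gap 0.607 of the range), and in that mouse the barcodes under 200 genes held 491 CPM. No cause was tested for either.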

How the results depend on the processing

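Values are limited by few UMIs: 3 to 29 per member in endothelial cells for those above 0, 22 for Lgals8 in myoepithelial cells and 15 in T/NK cells. The 6 comparisons share the tumor sums, the class rule leaves 35.9% of cells out, and the build named by the notes is not settled. Fits with 1 endothelial sum assume that it varies like the other sums. Of the 126 recomputed counts of called genes, 104 were within 1.5 times the reported count. Without a filter on low counts they were 2670 in hormone-sensing cells, 1829 in myoepithelial cells, 4665 in fibroblasts, 5548 in macrophages and 5162 in T/NK cells, and under DESeq2, on all genes with a UMI, 2875, 4794, 5852, 6328 and 5797, with 3837 in endothelial cells; the reported counts were 1520, 1009, 2409, 2644 and 2680, with 1056. The WT series alone gave 551 in hormone-sensing, 343 in myoepithelial and 655 in endothelial cells, and the CB series alone 313 in endothelial cells. Classes by whole profile gave 1654 and a fit of only 2 classes 223 in myoepithelial cells; cells of at least 500 genes gave 602 and a fit of only 2 classes 660 in endothelial cells. Leaving out 1 mouse gave 650 (mouse 4) to 1093 in myoepithelial and 689 (mouse 4) to 1140 in endothelial cells, where leaving out mouse 5 gave 702, and kept the other 4 within 1.5 times. Without the mouse block the counts were 1078, 754, 2035, 1030, 2270 and 2308 in the order hormone-sensing, myoepithelial, fibroblast, endothelial, macrophage and T/NK, and 1 member lost its call, Lgals8 in T/NK cells (adjusted p = 0.0534).

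The scaling moved the split of calls: those higher in the class were 38.9%, 50.1%, 48.6%, 40.1%, 44.1% and 41.5% as reported, 48.4%, 79.3%, 64.2%, 65.9%, 50.7% and 39.1% with RLE factors, 55.9%, 67.5%, 41.8%, 63.3%, 34.5% and 45.8% by library size, and 15.5%, 6.53%, 18.4%, 7.40%, 18.5% and 12.7% under DESeq2, in the same order. The median log2 fold change of the same genes under DESeq2 was -0.48, -1.30, -0.80, -1.64, -0.78 and -0.94. No called member changed sign under any alternative. Called members lost their call in 27 of the recomputed fits, 8 of them Lgals8 in myoepithelial and 12 Lgals8 in T/NK cells. The others were Lgals3 in fibroblasts and endothelial cells, Lgals1 in T/NK cells, Lgals3bp in fibroblasts and Lgals9 in macrophages. Uncalled members gained a call in 25 recomputed fits. Without a filter on low counts Lgals7 was called lower in myoepithelial cells (log2 fold change -1.33, edgeR adjusted p = 0.0011). So were Lgals3 in T/NK cells (-0.90, edgeR adjusted p = 3.51e-04) and Lgals1 in endothelial cells (-1.33, edgeR adjusted p = 0.0313). The fit without that filter gave every member a lower value than the reported fit in each class. As reported, the values of these genes were -0.83, -0.57 and -0.84 in the same order. The part of this shift in their calls was not tested.

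Differences with no call turned sign as follows, on the log2 scale. In myoepithelial cells Lgals3 was -0.49 with at least 3 distinct markers, -0.12 with at least 20 cells per sum, -0.41 in the WT series, -0.088 without the sum of mouse 3 and -0.54 under DESeq2 (-0.11 to 0.78 over left-out mice), and Lgals9 was 0.059 with 3 markers and 0.023 with RLE factors. Lgals8 was 0.035 by library size and 0.054 in the WT series in hormone-sensing cells. In fibroblasts it was 0.12 with RLE factors, 0.22 in the WT series and 0.085 with only 2 classes (-0.54 to 0.24 over left-out mice). In endothelial cells it was 0.0070 by library size, 0.050 with RLE factors and 0.35 in the CB series (-1.20 to 0.12 over left-out mice), and in macrophages -0.35 under DESeq2. Lgals9 was -0.046 without a filter and -0.56 under DESeq2 in fibroblasts and -0.66 under DESeq2 in endothelial cells. In T/NK cells Lgals9 was 0.21 with at least 500 genes, 0.037 with 3 markers, 0.038 with 20 cells per sum, 0.043 by library size, 0.0067 without the mouse block, 0.017 with only 2 classes and 0.057 without the myoepithelial sum of mouse 3 (-0.36 to 0.089 over left-out mice), Lgals3 was 0.00061 with at least 500 genes, and Lgals3bp was -0.15 without a filter and -0.61 under DESeq2. Counts of receptors and enzymes called higher or lower moved by over 1.5 times in 57 recomputations and stayed within it in 447. Among called receptors and enzymes, Cd44 in myoepithelial cells was -0.20 in the WT series and -0.016 under DESeq2, and under DESeq2 Lamp1 (-0.30) and Lamp2 (-0.17) in fibroblasts, Itgb1 (-0.29) in endothelial cells and B4galt1 (-0.12) in T/NK cells fell below 0, although all 5 stayed above the median of all genes there (by 0.50 to 1.35). Leaving out the myoepithelial sum of mouse 3 and the T/NK sum of mouse 8 were added after seeing the data. Scaling by library size, RLE factors and DESeq2 turned 3, 3 and 5 of 36 member values. Relative to the median of all genes they turned 0, 0 and 1 (Lgals8 in endothelial cells, 0.056 to -0.11). A change of scaling moves a member and that median alike, so this subtraction does not test a cause. The cause of these and the other changes was not tested.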
